A study of Mus musculus with 2 samples.

Results

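The 30 genes described here encode the proteins that make, store, remove and sense GABA and glycine, the main inhibitory transmitters of the central nervous system. They were listed by name, with earlier results of these data known, and were followed in optic nerve plus optic tract, a white matter tissue, from wild-type mice (WT) and from mice without CD47 (CD47 null, here CD47 KO). Each genotype was measured once, on 1 Affymetrix array that carried RNA pooled from several male mice, 13 to 15 weeks old for WT and 12 to 15 weeks old for CD47 KO. The sources differ on the pool sizes: the design text has 5 WT against 4 CD47 KO animals and the labelling protocol 4 against 5. The CD47 KO mice are labelled as null with no cell type named, no treatment beyond dissection is listed for either genotype, and the labels name no strain. For each gene the brightest probe set was used, and the gene counts as measured if that probe set exceeded a floor, the median signal of both arrays (106.4), in at least 1 array. Of the 30 genes, 21 were measured, 8 were under the floor in both arrays, and Gabbr2 had no value here; 12473 of 18193 genes on the array were measured.

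GABA is made from glutamate, loaded into synaptic vesicles, and cleared from the extracellular space by transporters on neurons and glia. It acts on GABA-A receptors, which are pentameric chloride channels, and on GABA-B receptors, which couple to G proteins; glycine acts on its own chloride channels. Whether chloride flows in or out when these channels open is set by chloride cotransporters, so that the cotransporters fix the sign of the response. White matter holds few neuronal cell bodies, and astrocytes, oligodendrocyte precursors and meningeal cells are known to express several of the transporters and receptor subunits as well.

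In CD47 KO white matter the transcripts needed to make GABA and load it into vesicles were at 46.1% to 56.9% of their WT signal. That of the neuronal chloride exporter was at 45.8%. The transcripts of Slc6a11, Slc6a13, Slc6a9 and Abat, for uptake and breakdown, were at 80.5% to 89.6%. Of the 21 measured genes, 3 were over 2-fold lower in CD47 KO, Slc12a5, Gad1 and Gad2, against 0.818% of all 12473 measured genes. None was over 2-fold higher, against 1.21% of all genes, and 7 were over 1.5-fold lower, against 4.68%, with 0 over 1.5-fold higher, against 4.02%. On the log2 scale the ratio of CD47 KO to WT lay below 0 for 20 of the 21, against 53.2% of all genes, and its median was -0.34, against -0.02 over all genes. Of the 20 genes above the floor in both arrays 19 had a log2 ratio below 0, with a median of -0.33. With 1 pool per genotype there was no replicate check and no test of any of these differences. A smaller number of cells that express a gene and less of its RNA in each cell cannot be told apart in such tissue RNA.

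**Figure D1:**
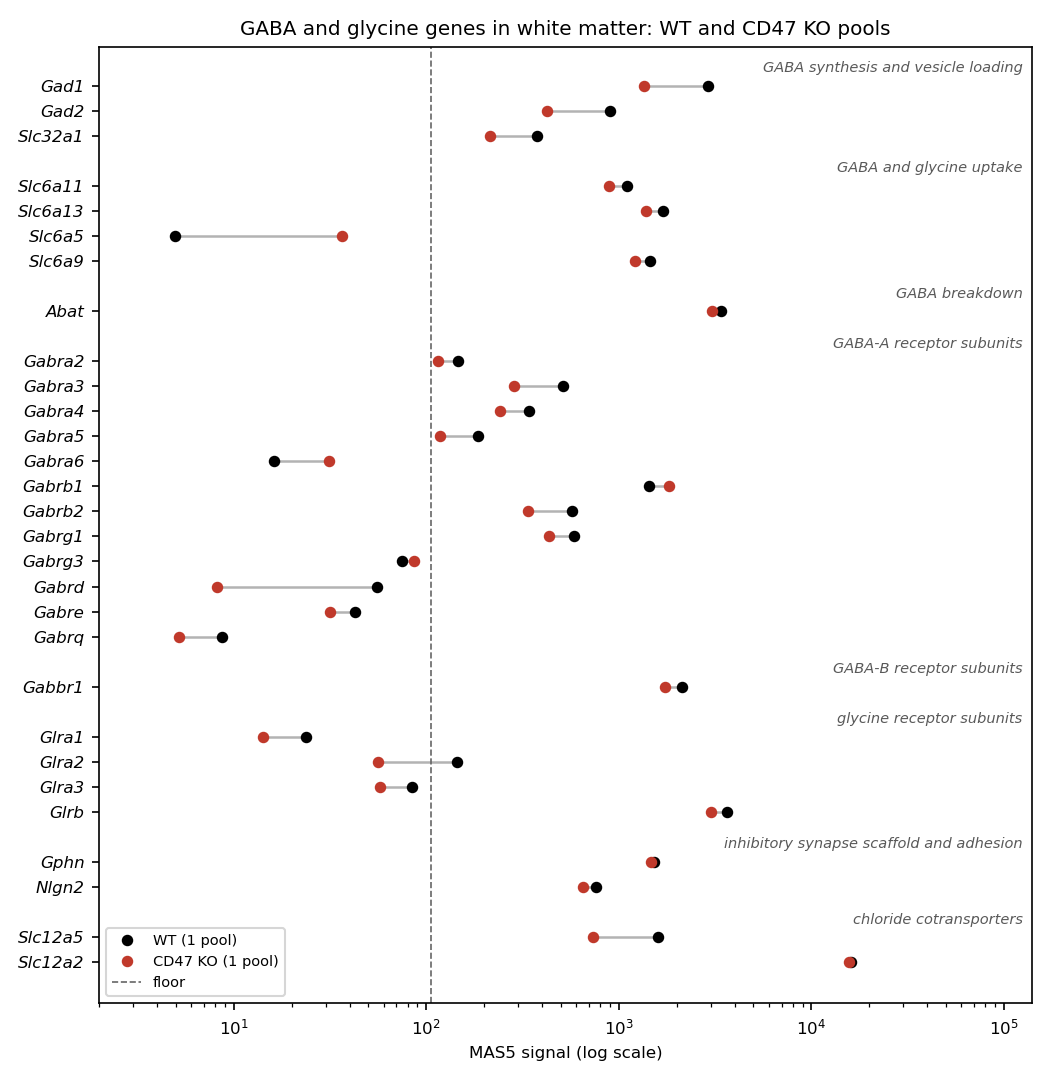
MAS5 signal (horizontal, log scale) of the 29 genes with a probe set, grouped by role, in the WT pool (black) and the CD47 KO pool (red), each point 1 array; the dashed line is the floor at 106.4. Gad1, Gad2, Slc32a1 and Slc12a5 show wide gaps with CD47 KO on the left, Gabrb1 is the 1 gene above the floor with CD47 KO on the right, and Abat, Gphn and Slc12a2 lie close together.

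The start-site sequences of the 3 genes over 2-fold lower are shown because these genes shared a direction and a size of difference. They are the RefSeq windows of assembly GRCm38.p6 from 250 bases before to 50 bases after the annotated start; capitals mark matches on either strand to the motifs named in the next paragraph, and no matches overlapped in these windows. All lie on the plus strand of chromosome 2. Gad1 is at chr2:70561879-70562178, Gad2 at chr2:22622077-22622376, and the more upstream of 2 windows of Slc12a5 at chr2:164960596-164960895.
Gad1: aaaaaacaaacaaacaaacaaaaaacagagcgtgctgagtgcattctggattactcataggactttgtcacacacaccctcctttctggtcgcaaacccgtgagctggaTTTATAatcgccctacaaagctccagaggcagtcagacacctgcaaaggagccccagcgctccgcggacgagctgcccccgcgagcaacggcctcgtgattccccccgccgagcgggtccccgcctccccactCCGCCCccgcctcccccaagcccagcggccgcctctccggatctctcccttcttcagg
Gad2: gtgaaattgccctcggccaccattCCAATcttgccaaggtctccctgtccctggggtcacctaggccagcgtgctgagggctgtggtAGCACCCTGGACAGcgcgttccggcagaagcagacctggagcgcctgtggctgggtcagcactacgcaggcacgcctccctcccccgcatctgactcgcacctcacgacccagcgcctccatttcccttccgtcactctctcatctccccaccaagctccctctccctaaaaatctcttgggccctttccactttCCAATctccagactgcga
Slc12a5: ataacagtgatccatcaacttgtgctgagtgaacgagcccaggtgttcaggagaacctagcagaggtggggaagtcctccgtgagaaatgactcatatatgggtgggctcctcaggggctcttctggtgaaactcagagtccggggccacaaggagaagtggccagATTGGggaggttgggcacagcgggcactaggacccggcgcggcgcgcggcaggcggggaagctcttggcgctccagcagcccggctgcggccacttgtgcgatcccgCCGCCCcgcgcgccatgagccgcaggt

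The Gad2 window held 1 match to the core of the NRSE (its longest run of capitals), the element bound by REST, which is known as a repressor of neuronal genes outside neurons. The match began at base 88 of the window, and the motif was found in 17 of 32851 RefSeq windows (0.0517%) and in no other of the 36 windows of 26 genes of this group that could be searched. The 4 further motifs searched were the GC box (GGGCGG), held by 35.7% of all windows, the CCAAT box (CCAAT), by 37.4%, the TATA box (TATAAA), by 13.6%, and the CRE (TGACGTCA), by 1.79%. The Gad1 window held 1 GC box and 1 TATA box on the minus strand from base 110 of the window, the Slc12a5 window 1 CCAAT box and 1 GC box, and the Gad2 window 2 CCAAT boxes. These are matches of letters only, and binding was not measured.

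Gad1 and Gad2 encode the paired glutamate decarboxylases that form GABA, and Slc32a1 encodes the vesicular transporter that loads GABA and glycine into synaptic vesicles. Gad1 went from 2918 in the WT pool to 1346 in the CD47 KO pool, 2.17-fold lower (log2 ratio -1.12). Gad2 went from 902 to 422, 2.14-fold lower (log2 ratio -1.10). Slc32a1 went from 377 to 214, 1.76-fold lower (log2 ratio -0.81). The CD47 KO signal was thus 46.1%, 46.8% and 56.9% of WT for these 3 genes, all of which mark GABA-releasing neurons. Among the 12473 measured genes, Gad1 had the 47th and Gad2 the 55th lowest log2 ratio, and Slc32a1 was at rank 212. Large ratios were commoner among dim genes: of 4 equal groups of all genes by mean signal, 1.64% of the dimmest and 0.192% of the brightest were over 2-fold lower. Gad1 lay in the brightest of these groups, as did 6 of the other GABA and glycine genes, none of them over 2-fold lower, Slc12a5 in the next and Gad2 in the next after that. The decarboxylases each had a further, dimmer probe set with a smaller difference in the same direction. For Gad1 it went from 215 to 159 (log2 ratio -0.43), whereas Gad2 went from 204 to 135 (log2 ratio -0.59). By the median over their probe sets Gad1 (log2 ratio -0.77) and Gad2 (log2 ratio -0.84) were under 2-fold, which left Slc12a5 alone over it.

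Uptake differed less. Slc6a11, a GABA transporter of astrocytes, went from 1104 to 888 (log2 ratio -0.31). Slc6a13, a GABA transporter known from the meninges and blood vessels, went from 1691 to 1392 (log2 ratio -0.28). Slc6a9, the glycine transporter GlyT1, mostly glial, went from 1456 to 1219 (log2 ratio -0.26). All 3 were lower by less than 1.5-fold. Slc6a9 was the gene whose probe sets disagreed most. The other, which is marked as matching several transcripts of the gene, went from 308 to 535, 1.74-fold higher (log2 ratio 0.80), so that the median over both was 0.27 and the direction was not settled. The neuronal glycine transporter gene Slc6a5 was under the floor in both arrays. Abat, the GABA transaminase that breaks GABA down in mitochondria, went from 3389 to 3035 (log2 ratio -0.16).

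Of 12 genes for GABA-A receptor subunits, 7 were measured, of which 6 were lower and Gabrb1 was higher in CD47 KO. None reached 2-fold by its brightest probe set, and 3 were over 1.5-fold lower. Gabra3 went from 515 to 285 (1.80-fold lower, log2 ratio -0.85). Gabrb2, a subunit of many synaptic receptors, went from 571 to 336 (1.70-fold lower, log2 ratio -0.76). Gabra5, a subunit of extrasynaptic receptors that is prominent in hippocampus, went from 186 to 118 (1.57-fold lower, log2 ratio -0.65), close to the floor in CD47 KO. Gabrb2 was the best covered of the group, with 4 probe sets that exceeded the floor in each array and all of them lower. Beside the brightest, their log2 ratios were -1.02, -1.07 and -0.59, and 2 of the 4 were over 2-fold lower; the one at -1.07 is marked for cross-hybridisation.

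The remaining subunits differed less. Gabra4 went from 340 to 242 (log2 ratio -0.49) and its other probe set from 118 to 91.8, which is under the floor. Gabrg1 went from 587 to 434 (log2 ratio -0.43), and by its other probe set from 264 to 162 (log2 ratio -0.70). Gabra2 was just above the floor, with a WT value of 146 against 115 (log2 ratio -0.34). By their brightest probe sets these subunits were thus lower by less than 1.5-fold, and Gabrg1 was 1.63-fold lower by the other. Gabrb1 stood apart: it went from 1428 to 1825, 1.28-fold higher (log2 ratio 0.35). Its other probe sets did not repeat this, which had log2 ratios of 0.03 (890.0 to 908) and -0.21 (448 to 387). In the mouse genome Gabrg1 lies next to Gabra2, and Gabra4 next to Gabrb1, with 1 coding gene, Cox7b2, between these pairs, so that the gene with the higher signal is a direct neighbour of one with a lower signal. Gabra6, Gabrg3, Gabrd, Gabre and Gabrq were under the floor in both arrays, with signals between 5.19 and 86.3, and no ratio is given for them.

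**Figure D2:**
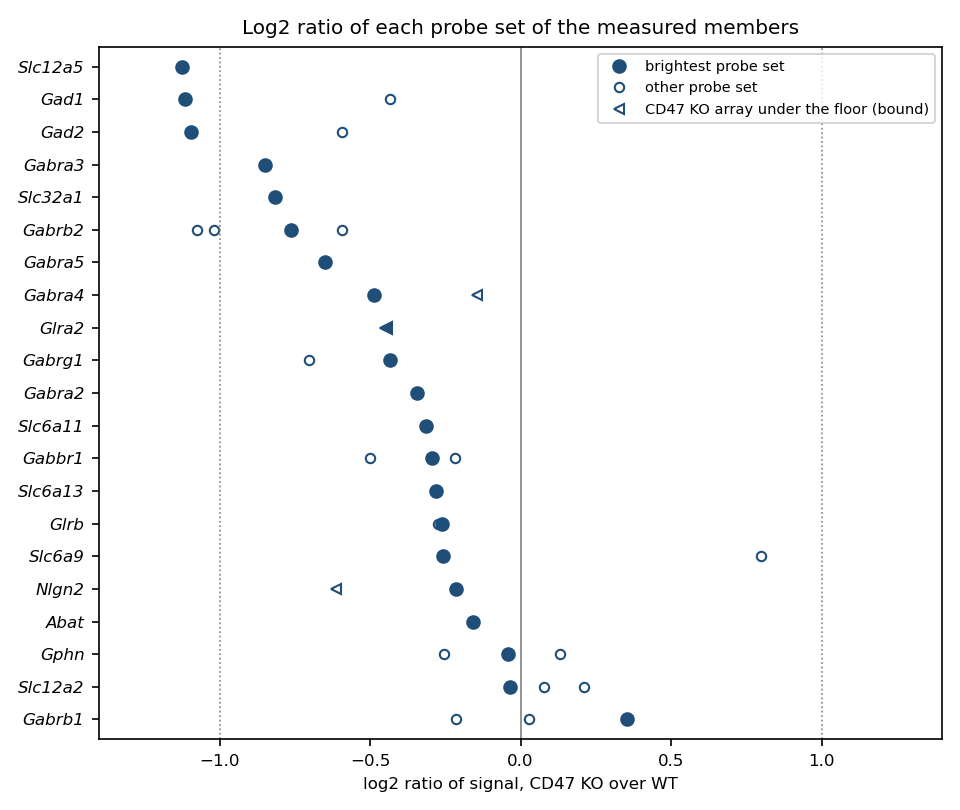
Difference between CD47 KO and WT, as a log2 ratio (horizontal), for each of the 39 probe sets of the 21 measured genes that exceeded the floor in 1 or both arrays; filled symbols are the brightest probe set of a gene, open symbols the others, triangles have the CD47 KO array under the floor, and dotted lines mark 2-fold. All 4 probe sets of Gabrb2 lie between -1.07 and -0.59, whereas those of Slc6a9 lie at -0.26 and 0.80.

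Gabbr1 encodes the GABA-binding subunit of the GABA-B receptor. It went from 2141 to 1748 (log2 ratio -0.29), and its other probe sets were also lower, at log2 ratios of -0.50 (2070.2 to 1465) and -0.22 (194 to 167). Among genes for the glycine receptor, Glrb, the subunit that anchors the receptor at synapses, went from 3629 to 3030 (log2 ratio -0.26), with -0.27 by its other probe set. Glra2, an alpha subunit known from immature neurons and retina, had a WT signal of 145 and a CD47 KO signal of 56.3, under the floor, and was at least 1.36-fold lower. It was measured through WT alone and so could only be lower. Glra1, the main adult alpha subunit of spinal cord and brainstem, and Glra3 were under the floor in both arrays.

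Gphn encodes gephyrin, the scaffold that holds glycine and GABA-A receptors at the synapse and is also an enzyme of molybdenum cofactor synthesis in other cells. Its signals were nearly equal, at 1518 and 1477 (log2 ratio -0.04), and its other probe sets had log2 ratios of -0.25 and 0.13. Nlgn2, the adhesion molecule of inhibitory synapses, went from 759.8 to 655 (log2 ratio -0.21), and by its other probe set from 163 to 43.5, under the floor and so at least 1.53-fold lower.

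The chloride cotransporters differed from each other. Slc12a5, the neuronal chloride exporter KCC2, went from 1594 to 731, 2.18-fold lower (log2 ratio -1.13), the 45th lowest log2 ratio of all measured genes. Slc12a2, the chloride importer NKCC1, which is also expressed by glia and other cells, went from 16073 to 15670 (log2 ratio -0.04), a sign that turned when the arrays were centred on their medians (0.0014). Its other probe sets had log2 ratios of 0.21 and 0.08. The exporter was thus at 45.8% of its WT signal and the importer at 97.5%. Slc12a5 rests on 1 probe set, since its other had signals of 12.9 and 20.5, under the floor.

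**Figure D3:**
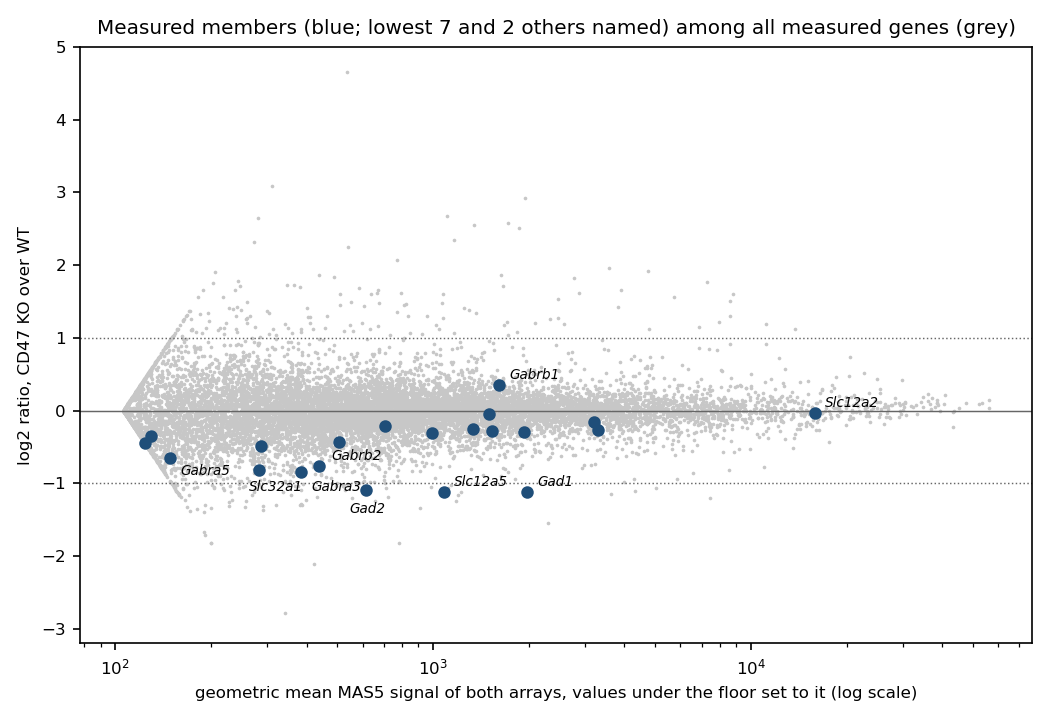
Log2 ratio of CD47 KO over WT (vertical) against the geometric mean signal of both arrays (horizontal, log scale), for the 12473 measured genes (grey) and the 21 measured genes of GABA and glycine signalling (blue); dotted lines mark 2-fold. Gad1, Gad2 and Slc12a5 lie below the lower dotted line, and most of the others lie below 0 within the grey cloud.

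Genes with several probe sets give the sole repeat measurement on these arrays. The difference in log2 ratio within 11653 such pairs, from 4740 genes and above the floor in both arrays, had an SD of 0.36 and was under 0.74 in 95% of them. For the present genes the SD was 0.39 over 23 pairs. Of their 18 further probe sets above the floor in at least 1 array, 13 had the same direction as the brightest one and 5 the opposite. The 5 belonged to Slc6a9, Gabrb1, Gphn and Slc12a2. The brightest probe sets of Slc6a11, Slc6a13, Slc6a9 and Abat had log2 ratios smaller in size than 1 SD. Those of Slc12a5, Gad1, Gad2, Gabra3, Slc32a1 and Gabrb2 exceeded 0.74 in size. The dimmer probe sets of Gad1 (-0.43) and Gad2 (-0.59) and the Gabrb2 probe set at -0.59 did not exceed 0.74 in size. The spread is that of a difference between 2 probe sets, not of a single log2 ratio. Variation between mice and between hybridisations is not part of this spread.

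Further genes of the pathway differed less. In 5 lists of 60 such genes, 48 had a probe set and 41 were measured. Of these, 38 were above the floor in both arrays, with a median of -0.12. Gabrp, Kcnj6 and Shisa7 were measured through WT alone and so could only be lower. None of the 41 was over 2-fold in either direction, and 31 had a log2 ratio below 0 (75.6%, against 53.2%), with a median of -0.16. Over 1.5-fold lower were 4 genes (9.76%, against 4.68% of all genes). The 4 were Nrxn3 (log2 ratio -0.73), a presynaptic adhesion molecule; Slc12a7 (-0.68), a chloride exporter of many tissues; Kcnj3 (-0.66), a potassium channel subunit that GABA-B receptors open; and Shisa7, a GABA-A receptor partner that was at least 1.96-fold lower, with a CD47 KO signal under the floor. Of 2 further receptor subunits measured, Gabrr2 went from 127 to 108 and Gabrp was under the floor in CD47 KO; of 3 partners and effectors of GABA-B receptors the brightest, Kctd12b, had a log2 ratio of -0.33. The median was -0.01 over 13 genes of scaffold, adhesion and receptor trafficking, with 7 below and 6 above 0, among which Gabarap had a log2 ratio of -0.01 and Lhfpl4 of 0.45. It was -0.12 over 12 genes of metabolism and other transporters, with 10 below and 2 above 0. Glul, the glutamine synthetase of glia, was at -0.08, Maob at -0.48 and Slc6a12, a further transporter, at -0.40. Over 11 genes of chloride balance the median was -0.09, with 9 below and 2 above 0. The brightest of these, the kinase gene Wnk1, was at 0.19, and Slc4a10 was at -0.55.

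General neuronal genes moved with these differences. Of 16 such genes, 15 had a log2 ratio below 0 and 3 were over 2-fold lower. Of these 3, Nefm, a neurofilament subunit of axons, went from 406 to 162, Vsnl1 from 1807 to 835 and Rbfox3, the antigen NeuN of neuronal nuclei, from 682 to 341, whereas Map2, a microtubule-binding protein and the brightest of the list, went from 5112 to 4188. The median over the 16 genes was -0.63, none was under the floor, and their summed signal went from 26348 to 17684 (67.1% of WT); here and for the other lists the sum is over the measured genes, with values as deposited. The summed signal of Gad1, Gad2 and Slc32a1 went from 4197 to 1983 (47.2% of WT). Genes of glutamate-releasing neurons and of glutamate receptors had a median of -0.46 over 13 measured, with 12 below 0. Their summed signal went from 9189 to 7219 (78.6% of WT). Of the 13, Grin2b and Grin2d were measured through WT alone and so could only be lower. The median over the 11 genes above the floor in both arrays was also -0.46. In that list Slc17a6, a vesicular glutamate transporter, went from 601 to 247 and Camk2a from 1611 to 768, whereas Gria1 had a log2 ratio of 0.21. Neither array had Slc17a7 or Grin2a above the floor.

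Genes that define types of inhibitory neurons had a median of -0.48 over 11 measured of 17 with a probe set, and 10 were below 0. The summed signal of these 11 went from 9554 to 6612 (69.2% of WT). Npy, a neuropeptide of several inhibitory neurons, went from 872 to 203, 4.29-fold lower, and Vip from 2133 to 1531 (log2 ratio -0.48), whereas Pvalb, a calcium-binding protein of fast-spiking interneurons, went from 539 to 673 (log2 ratio 0.32). Lhx6, Dlx5, Dlx6, Adarb2, Htr3a and Erbb4 were under the floor in both arrays. These identity genes thus ran from 4.29-fold lower to 1.25-fold higher.

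Some marker genes of grey matter regions and of the pituitary were above the floor in both pools as well. Striatal genes, from a region made up mostly of GABA-releasing neurons, were lower for 7 of 7 measured members, with Drd2 under the floor. Their median was -1.12, and their summed signal went from 4425 to 2039.6 (46.1% of WT). Tac1, a neuropeptide precursor, went from 1820 to 770.3, and Drd1, a dopamine receptor, from 377 to 76.2, under the floor. Drd1 was measured through WT alone and so could only be lower. The median over the 6 striatal genes above the floor in both arrays was -1.06. Hypothalamic genes were lower for 8 of 10, with a median of -0.58 and a summed signal that went from 37225 to 29776. Pmch went from 894 to 130.2 and Avp from 24982 to 22364. The 2 higher genes were Pomc, which went from 379 to 1166 (log2 ratio 1.62), and Hdc (0.58). Thalamic genes had a median of 0.08 over 7, genes of cortex and hippocampus of -0.11 over 5 measured of 7, and those of retina of 0.18 over 3 measured of 8. Their brightest genes were Plekhg1, Prox1 and Rlbp1, with log2 ratios of 0.26, -0.03 and 0.18. The largest differences were those of Ntng1 and Lamp5, both under the floor in CD47 KO, and Rom1 (0.90). Ntng1, Lamp5, Neurod2, Emx1 and the pituitary gene Tshb were measured through WT alone and so could only be lower. Of 4 pituitary genes 2 were below and 2 above 0, with a median of 0.15: Gh, growth hormone, went from 2191 to 6908, whereas Cga, a hormone subunit, went from 460.2 to 185. The part of these neuronal and regional transcripts in the values for GABA and glycine genes was not tested.

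Lists of glial markers had medians above 0. The median was 0.08 over 8 astrocyte genes, with a summed signal of 133577 in CD47 KO (108.4% of WT), 0.34 over 8 genes of oligodendrocyte precursors (106.8% of WT) and 0.11 over 9 genes of myelin and oligodendrocytes (108.1% of WT), all of them above the floor in both arrays, which fits the labelled tissue. Slc6a11, known from astrocytes, thus had a log2 ratio of -0.31 beside a median above 0 for astrocyte markers, of which Gfap went from 18931 to 27063 and S100b from 30088 to 29212. Of the precursor genes, Cspg4 had a log2 ratio of 0.58 and Bcas1 of 0.01. Of the myelin genes, Opalin had 0.62 and Mobp 0.15. Genes of meninges and fibroblasts, where Slc6a13 is known, were lower for 11 of 12. Their median was -0.37, and their summed signal went from 105920 to 94416 (89.1% of WT). Endothelium and pericyte genes were lower for 6 of 8, with a median of -0.33 (81.9% of WT) and Kcnj8 at 0.47. Among these, Aldh1a2 and Ptgds of the meninges had log2 ratios of -0.53 and 0.04, and Kdr and Itm2a of the endothelium -0.79 and -0.26. Choroid plexus and ependyma genes had a median of -0.51 over 5, with 3 below and 2 above 0, Ttr at -0.68 and Foxj1 at 0.61. The part of these cells in the value for Slc6a13 was not tested. Microglial genes had a median of 1.27 over 12, with log2 ratios of 2.93 for Clec7a and 0.46 for Csf1r, the brightest. Of the 12, 10 were above 0 and 2 below, Tmem119 (-0.52) and P2ry12 (-0.14).

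**Figure D4:**
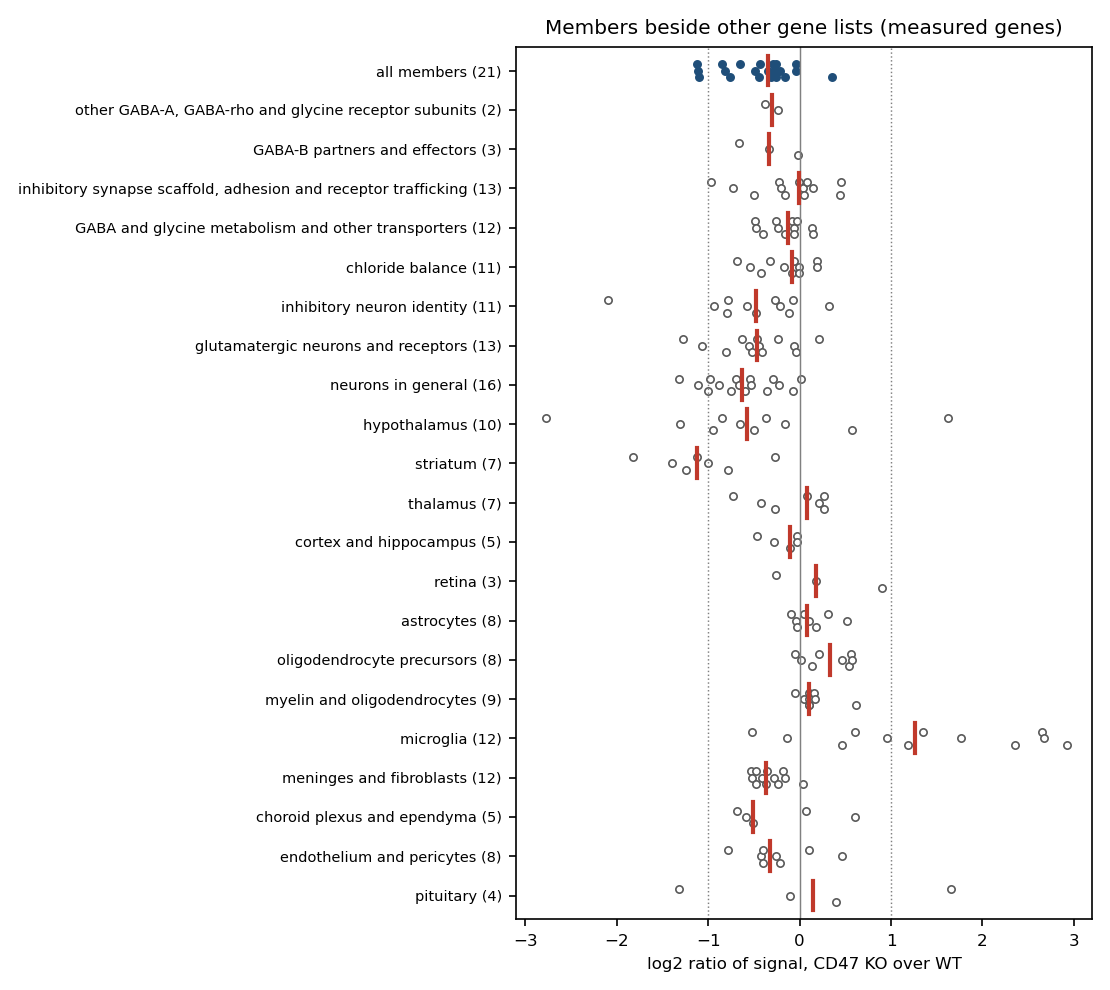
Difference between CD47 KO and WT, as a log2 ratio (horizontal), for the measured genes of each list (circles; number measured in brackets), the GABA and glycine genes at the top in blue, with the median of each list as a red bar; dotted lines mark 2-fold. The median of the 21 genes is at -0.34, that of general neuronal genes at -0.63 and of striatal genes at -1.12, while the medians of the glial lists lie to the right of 0.

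On both arrays 22360 to 22628 probe sets were above the floor, a number that the floor's definition as the median of both arrays largely fixes. The ratio of 3' to 5' probe sets, a sign of RNA integrity, was 1.05 for Gapdh and 2.42 for beta-actin in WT and 1.13 and 2.19 in CD47 KO. The targeted gene, Cd47, was at 34.3% to 39.5% of WT by the 3 of its probe sets that exceeded the floor in CD47 KO. The position of these probe sets relative to the deletion is not known here, so their remaining signal checks the label in direction only.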

How the data were processed

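White matter RNA of WT and CD47 KO mice was compared, 1 pooled sample and 1 array (GeneChip Mouse Genome 430 2.0) per genotype. The authors scanned the arrays with Command Console and processed them in Expression Console; MAS5 is named in the submitters' processing notes, without a version. As deposited, each value is a MAS5 signal intensity on a linear scale, with each array scaled to a trimmed mean of 500.003. MAS5 signals near background are noisy, so values under a floor (the 50th percentile of both arrays, 106.4) were set to it before log2 (CD47 KO/WT) was computed; the floor shortens ratios of dim genes.

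From 45101 probe sets, 64 controls were left out. The platform annotation gave 1 symbol for 34945 probe sets, several for 932 and none for 9160. Each gene was taken from the probe set with the highest mean log2 intensity. All 30 members were named. Of the other pathway and neuron lists, genes over 2-fold and the brightest were named, and of region and cell type lists the brightest and the largest difference; other genes were named after their values were seen. The members and lists were chosen with earlier results of these data known. No test was possible with 1 array per genotype, whose number limits the precision. Promoter windows were from RefSeq (GRCm38.p6). The steps were tested on simulated data and run in Python 3.11.15 with pandas 2.3.3.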

Additional observations from a re-analysis of the deposited data

How the results depend on the processing

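The count of genes over 2-fold lower was 3 under the floor at the 60th percentile, centring on array medians, quantile normalisation, removal of a loess trend and removal of probe sets marked for cross-hybridisation. Under these settings 0.507% to 0.738% of all genes were over 2-fold lower. The count was also 3 when both arrays had to exceed the floor, against 0.707% of all genes, an alternative chosen after seeing the data. It was 4 of 23 with the floor at the 40th percentile, which added Glra2, against 1.24% of all genes. It was 5 of 29 with no floor, against 7.94%, and 1 of 21 where the median of a gene's probe sets was used, against 0.576%. With no floor, 1 gene was over 2-fold higher; this was Slc6a5, with signals of 4.96 and 36.7, and Gabrd, with signals of 55.2 and 8.22, was among the 5 that were lower. Dim signals limit both. The median log2 ratio ran from -0.42 to -0.30 and the count below 0 from 17 to 25, as 18 to 29 genes were then measured. Over all genes, the counts over 2-fold lower were 102 of 12473 as reported, 173 of 13958 at the 40th percentile and 55 of 10838 at the 60th. They were 1445 of 18193 with no floor and 72 of 12491 by the median over probe sets. The log2 ratio of Slc12a2 changed sign under centring (0.0014) and where the median of its probe sets was used (0.08), and that of Slc6a9 in the latter case (0.27). No paired analysis was possible because each genotype had 1 array.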

Other observations

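A probe set annotated to both Gabrg3 and 6330406O05Rik was left out of the values above, as it cannot be assigned to 1 gene. Its signal was 102.9 in WT, under the floor, and 162 in CD47 KO. The 4 probe sets annotated to Gabrg3 alone were under the floor in both arrays.

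Among neuropeptides and calcium-binding proteins of neurons that use GABA, Calb1 went from 2496 to 1307 (log2 ratio -0.93), Sst from 361 to 208 (log2 ratio -0.80) and Nos1, the neuronal nitric oxide synthase, from 432 to 291 (log2 ratio -0.57). Calb2 and Reln, the latter an extracellular matrix protein, had log2 ratios of -0.27 and -0.07. Of the transcription factors of inhibitory neurons in the forebrain, Dlx2 went from 201 to 116 (log2 ratio -0.79) and Dlx1 from 177 to 152 (log2 ratio -0.21). These genes were named after their values were seen.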
